A study of Mus musculus with 16 samples.

Results

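The genes described here encode 4 subunits of the phagocyte NADPH oxidase, Cybb, Cyba, Ncf1 and Ncf4. They were chosen by name, and all 4 were found among the 13733 genes of the table and passed the filter on low values with 13173 genes in all. The libraries were made from cells of right knee joints of 16 mice, 4 per group. The groups cross genotype with injury: WT or Trem2-/-, each at D0 or D7. All mice were male. WT mice were wildtype C57BL/6, and Trem2-/- mice were germline knockouts on that background, which lack this surface receptor of myeloid cells in every tissue. D0 joints were uninjured, and D7 joints were taken 7 days after a single tibial compression that injures the anterior cruciate ligament, applied at 10 weeks of age. The sample labels also give an age of 16 weeks and, in an extraction text that speaks of control and T1DM mice, homogenized whole joints. Whether leukocytes were enriched before RNA extraction is not given in the sources used here. The mice of a group carry separate labels, and nothing in them says that mice shared a cage or a litter.

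The phagocyte NADPH oxidase moves electrons from cytosolic NADPH across a membrane to oxygen and so makes superoxide, the parent of the reactive oxygen species with which neutrophils and macrophages kill microbes. Cybb encodes gp91phox (NOX2), the flavocytochrome that carries the electrons, and Cyba encodes p22phox, the small membrane partner without which gp91phox is not stable. Ncf1 encodes p47phox, the organizer that is phosphorylated on activation and brings the cytosolic subunits to the membrane. Ncf4 encodes p40phox, which binds a phosphoinositide of phagosome membranes. The small GTPase Rac2 also takes part in the active enzyme and is treated below as a partner. Loss of any of these subunits can cause chronic granulomatous disease in people. p22phox also serves other NOX enzymes and is made in many cells outside the blood, whereas the other 3 subunits are largely restricted to leukocytes.

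In the GENCODE M21 annotation of GRCm38 (mm10), Cybb lies at chrX:9435252-9487771 on the minus strand, Cyba at chr8:122424776-122432930 on the minus strand, Ncf1 at chr5:134220053-134229625 on the minus strand and Ncf4 at chr15:78244801-78262580 on the plus strand. Of the exon bases of Ncf1, 11.1% overlap Gtf2ird2 on the other strand, and 5.44% of the 75-base words of its transcripts also occur in transcripts of that gene, so part of its count could have been shared or left out. No such overlap or shared word was found for the other 3 genes. The 250 bases upstream of the RefSeq start site (GRCm38.p6) are shown for Cybb, Cyba and Ncf1. No such window was available for Ncf4, which was not searched. The 3 windows were searched on both strands for 3 motifs of factors known to act on these genes. The motifs were GAGGAA, a core bound by PU.1, CCAAT, the CCAAT box, and GAAA followed by any 2 bases and GAAA, a repeat bound by interferon regulatory factors. Capitals mark the matches, and the sequences run 5′ to 3′ on the strand of the gene. The RefSeq start of Cybb lies inside the GENCODE gene model, which extends farther upstream.
Cybb, chrX:9469325-9469574, minus strand: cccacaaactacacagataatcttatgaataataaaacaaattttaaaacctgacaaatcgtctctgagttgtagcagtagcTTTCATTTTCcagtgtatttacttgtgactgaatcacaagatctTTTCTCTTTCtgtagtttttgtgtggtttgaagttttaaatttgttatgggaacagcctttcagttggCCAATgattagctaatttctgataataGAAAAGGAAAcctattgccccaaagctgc
Cyba, chr8:122432941-122433190, minus strand: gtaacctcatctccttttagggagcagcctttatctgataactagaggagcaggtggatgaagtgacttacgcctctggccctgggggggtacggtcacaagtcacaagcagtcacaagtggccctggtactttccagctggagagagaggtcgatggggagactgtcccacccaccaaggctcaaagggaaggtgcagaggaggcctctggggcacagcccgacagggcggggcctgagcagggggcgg
Ncf1, chr5:134229626-134229875, minus strand: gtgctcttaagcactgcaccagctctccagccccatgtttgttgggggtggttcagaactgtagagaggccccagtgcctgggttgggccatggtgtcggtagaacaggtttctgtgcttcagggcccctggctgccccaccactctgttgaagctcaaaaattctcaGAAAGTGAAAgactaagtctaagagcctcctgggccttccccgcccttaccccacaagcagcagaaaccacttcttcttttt
The window of Cybb held 1 CCAAT box, from base -56 to base -52 counted from the start site, and 3 matches to the GAAA repeat, at -168, -124 and -29 by their first bases. The window of Ncf1 held 1 match to the GAAA repeat, at -82, and that of Cyba held no match to any of the motifs. The GAAA repeat occurs in 2.97% of the 32817 windows of the same length, CCAAT in 33.8% and GAGGAA, which is absent from these 3 windows, in 23.3%. A match is a string of letters and says nothing of binding, and other sequences that these factors may bind were not searched.

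Reads per library on the listed genes ranged from 11567073 to 32867818. Values are read counts scaled to library size (CPM) after the authors' TMM normalization, and in the least deep library a count of 3 reads corresponds to 0.250 CPM, far under every value of the 4 genes (lowest 414 reads, Ncf4 in a Trem2-/- D7 mouse). Trem2 itself was at 10.7 to 22.5 CPM in WT D7 mice and at 3.42 to 4.84 CPM in Trem2-/- D7 mice, without overlap. At D0 its ranges overlapped, from 2.51 to 5.61 CPM in WT and from 0.948 to 2.68 CPM in Trem2-/- mice, so Trem2 RNA checks the genotype labels at D7 but not for every D0 mouse. Markers of neutrophils, monocytes and macrophages, B cells, fibroblasts, chondrocytes and endothelium were all above 0 in every group. These are bulk samples, in which fewer cells of a type and less RNA per cell cannot be told apart.

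In uninjured joints all 4 genes were well detected and varied widely from mouse to mouse. Cybb was at 209, 644, 544 and 316 CPM in WT D0 replicates 1 to 4, a mean of 428 ± 200.3 (SD, n = 4), and at 603, 247, 774 and 220.5 CPM in Trem2-/- D0 mice, a mean of 461 ± 272. WT D0 replicates 2 and 3 and Trem2-/- D0 replicates 1 and 3 were the high mice, and the 2 groups overlapped throughout. Ncf1 had the same mice at the top, with 246, 664, 552 and 304 CPM in WT D0 and 812, 444, 773 and 333 CPM in Trem2-/- D0. Cyba varied less, from 92.6 to 183 CPM in WT D0 and from 107 to 198 CPM in Trem2-/- D0. Ncf4 was at 68.1, 153, 150.1 and 88.5 CPM in WT D0 and at 173, 133, 203 and 87.4 CPM in Trem2-/- D0. The coefficient of variation was 46.8% for Cybb and 29.4% for Cyba in WT D0. Neutrophil markers varied in the same mice: their mean log2(CPM + 1) over 12 genes was 9.30, 10.33, 10.42 and 9.41 in WT D0 replicates 1 to 4, and 10.64, 9.82, 10.84 and 9.33 in Trem2-/- D0. The part of these markers in the spread of the members was not tested.

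**Figure D1:**
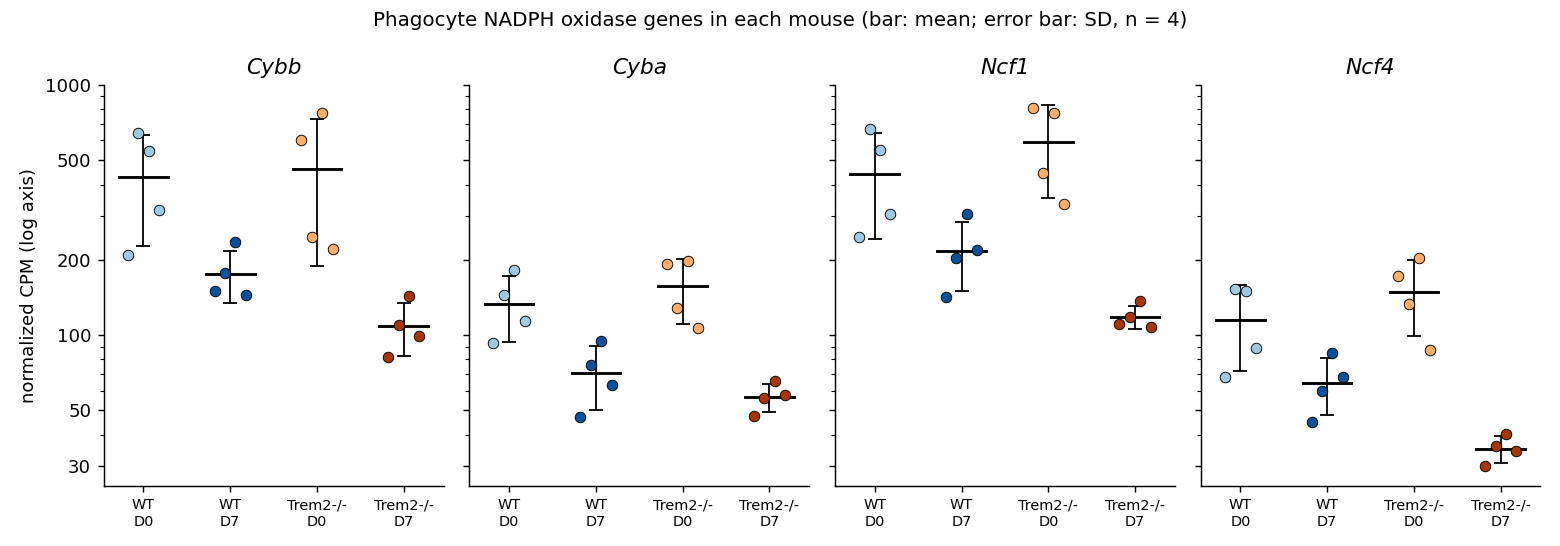
Normalized CPM on a log axis for Cybb, Cyba, Ncf1 and Ncf4, with 1 point per mouse, the mean as a bar and the SD as an error bar (n = 4 per group). In Trem2-/- mice every D7 point lies under every D0 point for all 4 genes, whereas in WT mice the D7 and D0 points overlap.

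Levels of different genes were compared per kilobase of exon (5.808 kb for Cybb, 1.039 kb for Cyba, 3.663 kb for Ncf1 and 2.02 kb for Ncf4). In WT D0 joints Cyba stood at 128 ± 37.7 CPM per kb and Ncf1 at 121 ± 54.3, and Cybb followed at 73.7 ± 34.5 and Ncf4 at 56.9 ± 21.4 CPM per kb. Neighbours in this order overlapped in range over the mice. The genes were measured in the same mice, which such ranges leave out, and their order within each mouse was not tested. In WT D7 joints the order was Cyba (67.7 ± 19.5), Ncf1 (59.2 ± 18.4), Ncf4 (31.9 ± 8.22) and Cybb (30.4 ± 7.13 CPM per kb), where neighbours again overlapped. In Trem2-/- D0 joints Ncf1 (161 ± 65.0) and Cyba (151 ± 44.0) headed Cybb (79.4 ± 46.8) and Ncf4 (73.8 ± 24.8 CPM per kb), also with overlap between neighbours. In Trem2-/- D7 joints Cyba was at 54.5 ± 7.01 CPM per kb, with its lowest mouse at 45.9, above the highest Ncf1 mouse at 37.2. Ncf1 (32.4 ± 3.44) in turn lay above Cybb (18.7 ± 4.49) and Ncf4 (17.4 ± 2.12 CPM per kb), whose ranges overlapped. Exon length counts every base of every transcript of a gene, so these levels are approximate.

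The first comparison asked how the oxidase genes respond to injury in WT joints. All 4 fell. Cybb went from the 428 CPM above to 149.5, 177, 235 and 144.5 CPM in WT D7 mice, a mean of 176 ± 41.4, and Ncf1 from a mean of 442 ± 199 to 141, 203, 305 and 219 CPM, a mean of 217 ± 67.3. For each of these genes, 3 of the 4 injured mice lay under the lowest uninjured mouse. Cyba went from a mean of 133 ± 39.2 to 47.1, 75.8, 95.1 and 63.2 CPM (70.3 ± 20.3). Ncf4 went from 115 ± 43.2 to 44.8, 59.9, 84.6 and 68.3 CPM (64.4 ± 16.6), with 2 injured mice under the lowest uninjured mouse. Groups overlapped for all 4 genes, where 9.34% of all genes tested were lower in every injured mouse than in any uninjured mouse, and WT D7 replicate 3 was the highest injured mouse for each of them. Following the study's methods, a call required that the unadjusted limma p was under 0.05 and that the change was over 0.32 on the log2 scale in size, and the p-values printed are those adjusted by Benjamini-Hochberg over the genes tested.

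On the log2(CPM + 1) scale, on which every fold change below is given, Cybb fell by 1.17 (SE 0.40, limma adjusted p = 0.0396). Cyba fell by 0.91 (SE 0.25, limma adjusted p = 0.0141). Ncf1 fell by 0.96 (SE 0.33) and Ncf4 by 0.78 (SE 0.28), with limma adjusted p of 0.0422 and 0.0499. So 4 of 4 members were called lower, where 18.2% of all genes tested were called lower. With adjustment it was again 4 of 4, against 12.6% of all genes, but the adjusted p rose above 0.05 for each member under some alternative, up to 0.123 for Cybb, 0.0555 for Cyba, 0.134 for Ncf1 and 0.153 for Ncf4. For Cyba this happened only without WT D0 replicate 3, and for the other 3 without WT D0 replicate 2 or 3, without WT D7 replicate 1, 2 or 4, and with only the WT groups in the fit. Ncf4, at an adjusted limma p next to the threshold, also passed above it with a pseudocount of 0.1 or 5, without the filter on low values, with median-of-ratios rescaling and with an untrended variance. The median change of the members was -0.94, and that of all genes tested was -0.04. The unadjusted call on Ncf4 was lost when WT D7 replicate 1, WT D0 replicate 2 or WT D0 replicate 3 was left out (log2 fold changes of -0.62, -0.62 and -0.63), and that on the other 3 was kept under each of 20 alternatives.

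The same comparison in Trem2-/- joints gave complete separation of the groups for all 4 genes, and the test of its difference from the WT response follows. Cybb was at 82.0, 109.7, 143.8 and 99.4 CPM in Trem2-/- D7 mice, a mean of 109 ± 26.1 and 23.6% of the D0 mean. Ncf1 was at 111, 118, 136 and 108 CPM, a mean of 119 ± 12.6 against 591 ± 238 at D0, or 4.98-fold lower. Cyba was at 47.7, 55.9, 65.5 and 57.6 CPM (56.7 ± 7.28) against 157 ± 45.7, and Ncf4 at 29.9, 35.9, 40.3 and 34.5 CPM (35.1 ± 4.28) against 149 ± 50.2. The injured mice were close to each other, with coefficients of variation of 10.6% for Ncf1 and 12.2% for Ncf4, and all 4 injured mice lay under the lowest uninjured mouse for every member. The log2 fold changes were -1.90 for Cybb (SE 0.40, limma adjusted p = 0.00110) and -1.41 for Cyba (SE 0.25, limma adjusted p = 0.000275). They were -2.22 for Ncf1 (SE 0.33, limma adjusted p = 8.84e-05) and -1.99 for Ncf4 (SE 0.28, limma adjusted p = 6.02e-05). Thus 4 of 4 members were called lower, against 27.9% of all genes tested (with adjustment again 4 of 4, against 27.2%), and 4 of 4 were lower without overlap, against 26.3%. In either direction 54.5% of the genes tested were called in this comparison, against 37.4% in WT mice.

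The interaction asked whether the injury response differed between genotypes. Ncf1 and Ncf4 were called, with a drop in Trem2-/- mice that exceeded the drop in WT mice by 1.26 for Ncf1 (log2, SE 0.47) and by 1.21 for Ncf4 (SE 0.40). The difference was -0.73 for Cybb (SE 0.56, limma adjusted p = 0.764) and -0.50 for Cyba (SE 0.35, adjusted p = 0.731), which were not called. In all, 2 of 4 members were called lower, against 5.02% of all genes tested. After adjustment over all genes none of the 13173 passed in limma (adjusted p of 0.579 for Ncf1 and Ncf4), with 1075 at an unadjusted p under 0.05, and none passed with edgeR or with voom on the recovered reads. Both calls were kept when any of the 16 mice was left out, with log2 values from -1.50 to -1.02 for Ncf1 and from -1.45 to -0.99 for Ncf4.

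The next comparison was between the genotypes in injured joints. Ncf1 and Ncf4 were called lower in Trem2-/- D7 than in WT D7 mice at an unadjusted p, and Cybb and Cyba were not called. The Ncf1 mean was 54.6% of that in WT D7, with the highest Trem2-/- mouse at 136 CPM and the lowest WT mouse at 141 CPM. The Ncf4 mean was 54.5%, with 40.3 CPM in the highest Trem2-/- and 44.8 CPM in the lowest WT mouse. The log2 fold changes were -0.82 for Ncf1 (SE 0.33, limma adjusted p = 0.615) and -0.83 for Ncf4 (SE 0.28, adjusted p = 0.558). Cybb had a mean of 61.7% of WT D7 and a log2 fold change of -0.69 (SE 0.40, limma adjusted p = 0.755), and its groups were apart by little, with 143.8 CPM in the highest Trem2-/- and 144.5 CPM in the lowest WT mouse. Cyba had a log2 fold change of -0.27 (SE 0.25, limma adjusted p = 0.850) and overlapping groups, from 47.1 to 95.1 CPM in WT and from 47.7 to 65.5 CPM in Trem2-/- mice. Thus 2 of 4 members were called lower against 4.53% of all genes tested, and 3 of 4 were lower without overlap against 4.78%. With adjustment no gene passed in limma, with 958 genes at an unadjusted p under 0.05, and 0 passed with edgeR and 1 with voom. Over all genes 156 were called higher and 597 lower, and with quantile normalization of the libraries 246 and 492.

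The call on Ncf1 at D7 depended on single mice, and that on Ncf4 did not. The call on Ncf1 was lost without WT D7 replicate 3 (log2 fold change -0.64), without Trem2-/- D7 replicate 1 (-0.79) and without Trem2-/- D7 replicate 4 (-0.78), while that on Ncf4 was kept in each of 20 alternatives, with log2 fold changes from -0.99 to -0.69. Cybb, which was not called, was called when only the injured groups were fitted, which leaves out the wide spread of the uninjured mice (log2 fold change -0.69, as before). The comparison shares its WT D7 and Trem2-/- D7 mice with both injury comparisons and the interaction, so these results are not independent of each other.

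In uninjured joints no member was called between the genotypes, where 2.15% of all genes tested were called. Log2 fold changes, Trem2-/- over WT, were 0.03 for Cybb (SE 0.40), 0.23 for Cyba (SE 0.25), 0.44 for Ncf1 (SE 0.33) and 0.39 for Ncf4 (SE 0.28). No member had an unadjusted limma p under 0.05, and none was called by edgeR or voom either. The spread of the uninjured mice was wide against these differences: the sign for Cybb turned with WT D0 replicate 1, WT D0 replicate 4, Trem2-/- D0 replicate 1 or Trem2-/- D0 replicate 3 left out, and without Trem2-/- D0 replicate 4 Ncf4 was called higher in Trem2-/- mice (0.62).

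**Figure D2:**
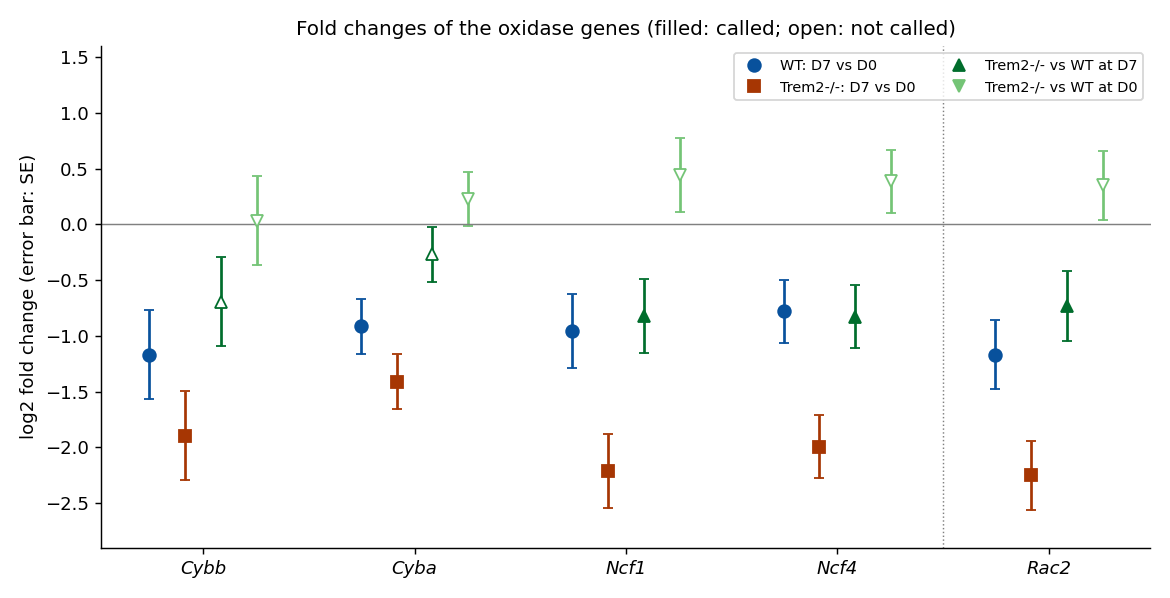
Log2 fold change (error bars: SE) of the 4 members and the partner Rac2 in 4 comparisons, filled where called. After injury all 5 genes were lower in both genotypes, and at D7 the values of Cyba (-0.27) and Cybb (-0.69) are open, that is not called.

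Ratios between members within a mouse depend little on how libraries are scaled, and they show which subunits moved apart. The ratio of Ncf1 to Ncf4, both cytosolic, was the steadiest of the 6, with a log2 ratio of 1.72 ± 0.09 in WT D7 and 1.73 ± 0.10 in Trem2-/- D7, a difference of 0.0074 (exact two-sided permutation p = 0.886). Over the 16 mice the SD of this log2 ratio was 0.17, against 0.40 for Cybb over Cyba, which had the widest spread. Cyba stood higher against both in injured Trem2-/- joints. Its log2 ratio to Ncf4 was 0.62 to 0.72 in Trem2-/- D7 mice and -0.11 to 0.33 in WT D7 mice, a difference of 0.56 without overlap. Its log2 ratio to Ncf1 was -1.21 to -0.90 against -1.78 to -1.41, a difference of 0.55, also without overlap. Cybb over Cyba was lower in Trem2-/- D7 mice, 0.77 to 1.12 against 1.18 to 1.65, a difference of -0.43. Each of the 3 had an exact two-sided permutation p of 0.0286, the smallest that 4 against 4 mice can give. Their adjusted p was 0.137 over the 24 ratios tested, so none passed the correction. Between the genotypes at D7 the log2 ratio of Cybb to Ncf1 differed by 0.126 (exact two-sided permutation p = 0.486). That of Cybb to Ncf4 differed by 0.133 (exact two-sided permutation p = 0.457).

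With injury in Trem2-/- mice the log2 ratio of Cyba to Ncf1 differed by 0.81 and that to Ncf4 by 0.58, without overlap (exact two-sided permutation p = 0.0286 and adjusted p = 0.137 for each). In WT mice the same changes with injury were 0.04 and -0.13 (exact two-sided permutation p = 0.886 and 0.400). The other 19 of the 24 comparisons of ratios had an unadjusted p above 0.05, among them all 6 between the genotypes at D0. The difference between the genotypes in the ratio of Ncf1 to Ncf4 at D7 turned from 0.0074 to -0.036 with a pseudocount of 5.

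**Figure D3:**
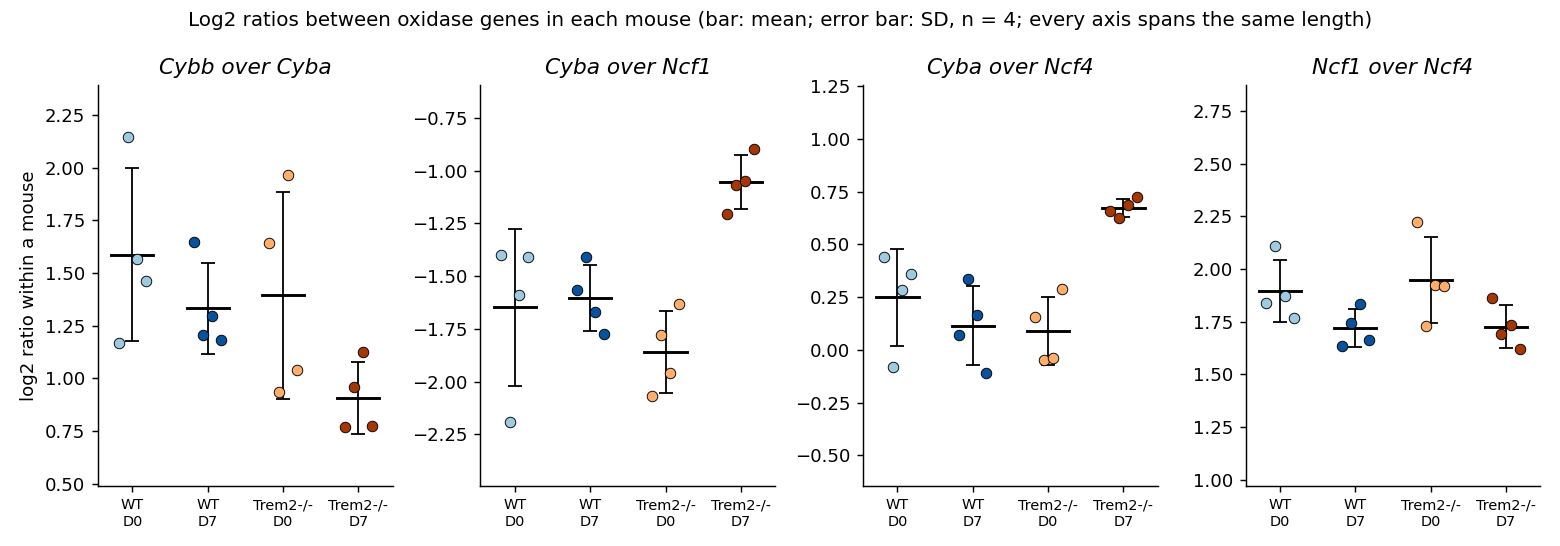
Log2 ratio between pairs of members within each mouse (points), with the mean as a bar and the SD as an error bar (n = 4 per group), on axes of equal length. Trem2-/- D7 mice stand above the other groups for Cyba over Ncf1 and Cyba over Ncf4, whereas Ncf1 over Ncf4 is at 1.72 and 1.73 in the injured groups.

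Pan-leukocyte, neutrophil and B-cell markers were called lower after injury like the members, whereas more monocyte and macrophage markers were called higher than lower. Over all genes tested, 18.2% were called lower and 19.3% higher after injury in WT mice. In Trem2-/- mice 27.9% were called lower and 26.5% higher. Between the genotypes at D7, 4.53% were called lower in Trem2-/- mice. Pan-leukocyte genes (Ptprc, which encodes CD45, Coro1a, Cd53, Laptm5, Lcp1 and Cd52) were called lower after injury in 6 of 6 cases in WT (median log2 fold change -0.79) and 6 of 6 in Trem2-/- mice (-1.82). At D7, 5 of 6 were called lower in Trem2-/- mice (median -0.64), and this count was 2 without WT D7 replicate 3, Trem2-/- D7 replicate 1 or Trem2-/- D7 replicate 2. Their summed level was 2678 to 5222 CPM in WT D0, 1514 to 3335 in WT D7, 3322 to 5728 in Trem2-/- D0 and 1197 to 1501 CPM in Trem2-/- D7. Neutrophil markers (S100a8, S100a9, Ly6g, Retnlg and 8 others) were called lower after injury in 12 of 12 cases in both genotypes (medians -1.41 and -2.26), and 1 of 12, Csf3r, was called lower in Trem2-/- mice at D7, where all 12 had means below WT (median -0.59). That count was 0 without WT D7 replicate 3 or 4 and 3 without WT D7 replicate 1. Among 11 monocyte and macrophage markers, 7 were called higher and none lower after injury in WT. In Trem2-/- mice 6 were called higher, among them complement genes such as C1qa, and 3 lower. Cd68, Cd14 and Ccr2 were called in Trem2-/- mice but not in WT. The summed level of these markers was 917 to 1613 CPM in WT D0 and 1025 to 1808 CPM in WT D7. In Trem2-/- mice it was 1042 to 1690 CPM at D0 and 869 to 1055 CPM at D7. At D7, 4 of the 11 (Csf1r, Adgre1, Cd68 and Cd163) were called lower in Trem2-/- mice (median -0.39). B-cell markers were called lower in 7 of 7 cases in both injury comparisons and at D7 between the genotypes (median -0.91). Chondrocyte markers were called higher with injury in 4 of 4 cases in both genotypes, and fibroblast and matrix markers in 4 of 6 in WT and 5 of 6 in Trem2-/- mice.

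Some markers of other cell types were called lower after injury like the members, and others were called higher or not called. Over all genes tested, 18.2% were called lower and 19.3% higher in WT mice, and 27.9% lower and 26.5% higher in Trem2-/- mice. Eosinophil markers were called lower after injury in 4 of 4 cases in both genotypes (2 in WT without WT D0 replicate 2), erythroid markers in 3 of 3 in both, and T and NK cell markers in 4 of 6 in WT and 5 of 6 in Trem2-/- mice, with 1 called higher in each. Muscle markers were called lower in 4 of 4 cases in Trem2-/- mice and in 1 of 4 in WT mice. Leaving out any 1 of the 8 WT mice moved the latter count, to 0 without replicate 1 or 3 at D0 or replicate 2 or 3 at D7, and to as many as 4 without replicate 4 at D7. Osteoclast markers were called higher in 3 of 4 cases in WT and 4 of 4 in Trem2-/- mice. In the interaction 3 of the 4 were called higher, where 365 of all 13173 genes tested were called higher. None of the 4 endothelial markers was called after injury in either genotype by limma (0 at an unadjusted p under 0.05), edgeR or voom, and 1 was in Trem2-/- mice without Trem2-/- D0 replicate 4. The part of these cell types in the changes of the members was not tested.

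Set against the mean of the pan-leukocyte genes in the same mouse, the changes of the members ranged from -0.37 to 0.43. After injury the difference between member and pan-leukocyte mean changed in WT mice by -0.26 for Cybb, -0.01 for Cyba, -0.05 for Ncf1 and 0.12 for Ncf4. In Trem2-/- mice it changed by -0.05 for Cybb, 0.43 for Cyba, -0.37 for Ncf1 and -0.15 for Ncf4. Between the genotypes at D7 it was -0.01 for Cybb, 0.41 for Cyba, -0.14 for Ncf1 and -0.15 for Ncf4, so on this scale Cyba was higher and the others close to or under 0. Against monocyte and macrophage markers, in contrast, changes with injury in WT mice were -2.33, -2.07, -2.12 and -1.94 for Cybb, Cyba, Ncf1 and Ncf4. In Trem2-/- mice they were -2.59, -2.10, -2.91 and -2.69 in that order. Set against the neutrophil markers the changes were above 0, in WT mice by 0.22 for Cybb, 0.47 for Cyba, 0.43 for Ncf1 and 0.61 for Ncf4, and in Trem2-/- mice by 0.34, 0.83, 0.02 and 0.24 in that order. These differences are descriptions with no test, and the part of the share of leukocytes in the fold changes of the members was not tested.

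**Figure D4:**
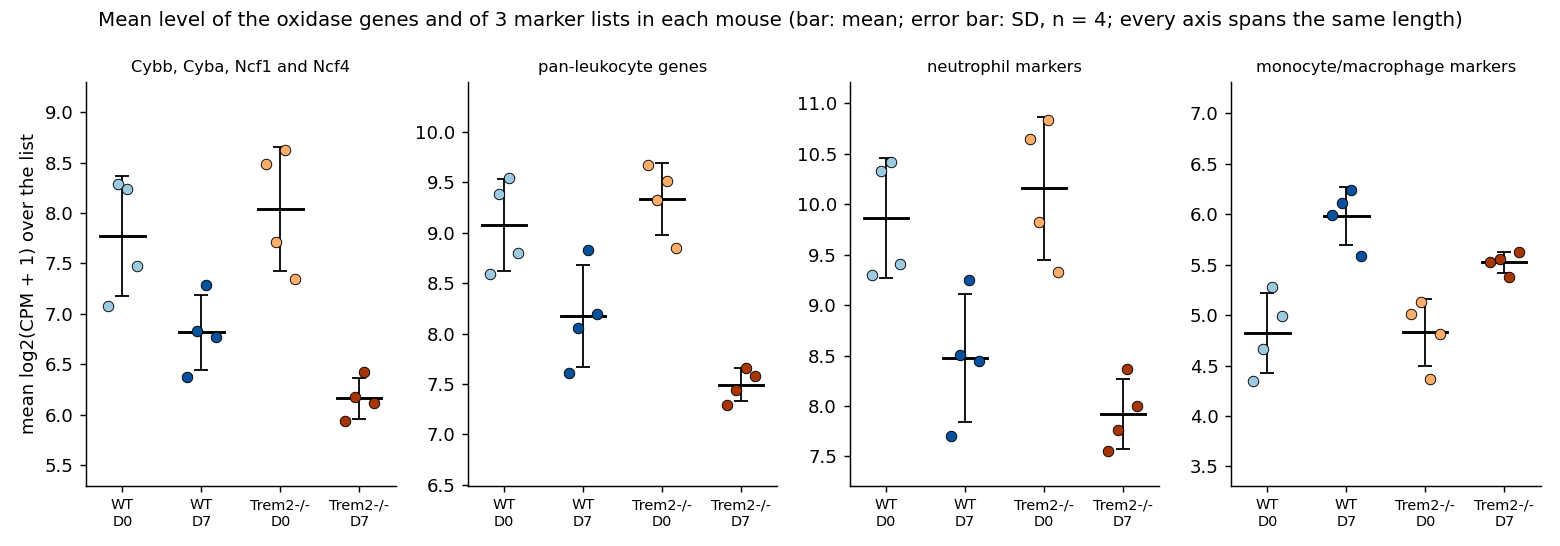
Mean log2(CPM + 1) over the 4 members and over 3 marker lists in each mouse (points; bar: mean, error bar: SD, n = 4 per group), on axes of equal length. By group mean, the members, pan-leukocyte genes and neutrophil markers are lower at D7 than at D0 in both genotypes, and the monocyte and macrophage markers are higher.

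Among the partners of the enzyme, 3 of the 7 tested were called lower after injury in each genotype. The shares called lower over all genes tested were 18.2% in WT and 27.9% in Trem2-/- mice. Rac2, the leukocyte GTPase of the complex, fell with injury by 1.17 in WT (SE 0.31, limma adjusted p = 0.0135) and by 2.25 in Trem2-/- mice (limma adjusted p = 5.09e-05), and its difference at D7 was -0.73 (SE 0.31, limma adjusted p = 0.627). That call on Rac2 was lost without WT D7 replicate 2 (-0.71) or 3 (-0.52) and without Trem2-/- D7 replicate 1 (-0.61) or 2 (-0.73). Arhgdib, a leukocyte inhibitor of the GTPase cycle, and Hvcn1, the proton channel that balances the charge moved by the oxidase, were called lower after injury in both genotypes (Arhgdib -1.27 and -2.12, Hvcn1 -0.88 and -1.62).

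The other 4 partners tested were not called in any comparison. Rac1 was at 358 ± 48.5 CPM in WT D0 and 359 ± 39.8 in WT D7, and at 354 ± 22.6 and 367 ± 12.7 CPM in Trem2-/- mice. Rap1a and Arhgdia had log2 changes with injury between -0.13 and 0.16 in both genotypes. BC017643, known as EROS, which is needed for the protein of Cybb to be made, was at 43.7 ± 7.61 and 38.2 ± 7.59 CPM in WT and 53.5 ± 19.3 and 38.3 ± 2.92 CPM in Trem2-/- mice at D0 and D7, with log2 changes of -0.19 and -0.41 that were not called. Its ranges overlapped between all 4 groups, unlike those of Cybb. Of the 7 partners tested, 3 were thus called lower after injury in each genotype and 1, Rac2, lower in Trem2-/- mice at D7. The share called lower at D7 over all genes tested was 4.53%. The 4 that were not called were singled out after their values were seen.

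Other NADPH oxidase genes were called higher after injury or not called. Nox4, a constitutively active oxidase of mesenchymal cells that also uses p22phox, was called higher after injury, from 11.9 ± 6.68 to 21.9 ± 7.62 CPM in WT (0.94, SE 0.34, limma adjusted p = 0.0497) and from 11.98 ± 3.05 to 26.7 ± 4.42 CPM in Trem2-/- mice (1.11, limma adjusted p = 0.0128). The WT call on Nox4 was lost without WT D0 replicate 2 or WT D7 replicate 1. Duox1 and its maturation factor Duoxa1 were also called higher in both genotypes, Duox1 by 1.15 and 1.61 and Duoxa1 by 0.86 and 1.86. These are low levels, with means from 1.19 to 14.3 CPM. Noxo1, an organizer of other NOX enzymes, was at 1.64 to 3.82 CPM in every group and was not called. So 3 of the 4 genes tested in this list were called higher with injury in each genotype (19.3% of all genes in WT and 26.5% in Trem2-/- mice), and none was called between the genotypes at D7 by limma (0 at an unadjusted p under 0.05), edgeR or voom, though 1 was with WT D7 replicate 2 left out.

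Most receptors that trigger the burst were called lower after injury, where 18.2% of all genes tested were called lower in WT and 27.9% in Trem2-/- mice. Fcgr3 and Fcer1g (an Fc receptor for immune complexes and its signaling chain), Itgb2 (the shared chain of leukocyte integrins), C5ar1 (the receptor of the anaphylatoxin C5a), Clec7a (a receptor of fungal glucans) and Fcgr4 (another Fc receptor) were called lower after injury in WT, 6 of the 7 receptor genes tested, and all 7 were called lower in Trem2-/- mice. Fpr1, the formyl peptide receptor, had a log2 fold change of -0.71 in WT that was not called (SE 0.36, limma adjusted p = 0.140). The WT calls on Itgb2 and C5ar1 were lost without WT D0 replicate 2, WT D0 replicate 3 or WT D7 replicate 1. At D7 Itgb2 had the largest difference, at 194 CPM in Trem2-/- against 340 CPM in WT mice (-0.76, SE 0.26, limma adjusted p = 0.558). In all, 5 of 7 were called lower in Trem2-/- mice at D7, against 4.53% of all genes tested. This count rested on single mice. It was 1 without WT D7 replicate 3, Trem2-/- D7 replicate 1 or Trem2-/- D7 replicate 2, 2 without WT D7 replicate 4 and 7 without WT D7 replicate 1.

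Most kinases and exchange factors that activate the oxidase were called lower after injury, against 18.2% of all genes tested in WT and 27.9% in Trem2-/- mice. Of 17 such genes, 11 were called lower and 1 higher after injury in WT and 14 lower and 1 higher in Trem2-/- mice. The exception was Prkca, a protein kinase C form of many tissues, which rose by 1.02 and 1.27. At D7, 8 were called lower in Trem2-/- mice, against 4.53% of all genes tested. They were Prkcb and Prkcd (kinases of p47phox), Vav1 and Vav3 (exchange factors for Rac), and Plcg2, Pik3cg, Syk and Btk (enzymes that signal from leukocyte receptors). The largest of these differences was that of Prkcb, a leukocyte protein kinase C, at 31.3 against 59.8 CPM (-0.89, SE 0.23, limma adjusted p = 0.451), followed by Pik3cg (-0.81) and Vav1 (-0.76). With 1 mouse left out the count ranged from 6 to 9.

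Among transcription factors known to act on these genes, Spi1 (PU.1), the myeloid master regulator, fell with injury by 0.84 in WT and 1.78 in Trem2-/- mice and was the only 1 of 10 called at D7 (57.3 against 90.0 CPM, -0.61, SE 0.25, limma adjusted p = 0.615). That call was lost without WT D7 replicate 3 (-0.44) or Trem2-/- D7 replicate 1 (-0.53), and the count was 2 without WT D7 replicate 4. Over all genes tested, 4.53% were called lower in Trem2-/- mice at D7. After injury, 7 of these 10 factors were called lower and 1 higher in each genotype. Over all genes tested, 18.2% were called lower in WT and 27.9% in Trem2-/- mice. Irf8 changed by -0.92 and -1.35, Cebpb by -1.06 and -1.39 and Cebpe, a factor of late granulocyte maturation, by -1.68 and -2.42. Hoxa10 was the gene that rose, by 0.62 and 1.04, from means of 5.18 and 4.12 CPM.

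Genes for the supply of the oxidase substrate were called in both directions. The list held 9 genes of pathways that supply NADPH, not all of which make it themselves. Of the 9, 4 were called lower and 2 higher after injury in WT, and 6 lower and 2 higher in Trem2-/- mice. Over all genes, 18.2% were lower and 19.3% higher in WT, and 27.9% lower and 26.5% higher in Trem2-/- mice. The 2 of 9 called higher are thus near the share of all genes. The pentose phosphate enzymes G6pdx (-0.88 and -1.32), Tkt (-0.83 and -1.37), Taldo1 (-0.83 and -1.40) and Rpia (-1.01 and -1.27) fell, whereas malic enzyme Me1 (1.33 and 1.65) and the isocitrate dehydrogenase Idh1 (0.55 and 0.59) rose. None of the 9 was called between the genotypes at D7 or D0 by limma (0 at an unadjusted p under 0.05), edgeR or voom, though 1 was at D7 without WT D7 replicate 1 and 1 at D0 without WT D0 replicate 2. Among 24 genes that remove or use superoxide and peroxide, Mpo (myeloperoxidase, -1.84 and -2.56), Epx (eosinophil peroxidase) and Gsr (-1.06 and -1.76) were called lower after injury, and Gpx7 (2.07 and 2.93), Gpx8 (1.58 and 2.52) and the extracellular dismutase Sod3 (0.97 and 1.29) were called higher, in both genotypes. In all, 5 were called higher and 8 lower in WT, 6 higher and 7 lower in Trem2-/- mice, and, apart from those lower in WT, these counts of 24 lie near the shares over all genes given above. None was called between the genotypes at D7 (0 at an unadjusted limma p under 0.05, 1 called by edgeR and 1 by voom, and 3 with WT D7 replicate 2 left out). The call on Epx in Trem2-/- mice was lost in 6 of the 8 fits that left out 1 mouse, and that in WT mice without WT D0 replicate 2.

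Genes whose pattern was most like that of each member were found by the SD, over the 16 mice, of the difference in log2(CPM + 1) to the member, among all genes tested. For Ncf4 they included Alox5 (SD 0.098), Myo1f (0.11), Pstpip1 (0.13) and Itgal (0.14), against an SD of 0.88 for Ncf4 itself and a median of 0.91 over all genes. For Ncf1 they included Rinl (0.16), Arhgap9 (0.16), Ncf4 (0.17) and Rac2 (0.17), against 1.00 for Ncf1 itself. For Cybb they were Clec12a (0.18), Gm4763 (0.18), Arhgdib (0.19), Acpp (0.19) and Adpgk (0.19), and Ncf1 came at rank 55. For Cyba they were Cdk2ap2 (0.14), Prdx5 (0.14), Cfp (0.14), Taldo1 (0.14) and Prdx6 (0.14), and the nearest other member, Ncf4, came at rank 189 with an SD of 0.29. Thus Ncf4 and Ncf1 were near neighbours, at ranks 3 and 14 of each other, whereas Cybb was at rank 943 for Cyba and Cyba at rank 240 for Cybb. These likenesses are descriptions over mice that share their libraries and group differences.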

How the data were processed

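Gene-level RNA-seq values of 16 mice were used. Per the study's methods, reads were aligned to mm10 with STAR, assigned to genes with featureCounts and normalized by TMM in edgeR. The deposited table holds 1 signal per gene and library, namely TMM-normalized CPM, and dividing each value by its library's smallest step gave whole reads for 100% of values (tolerance 0.02 reads). Of 13734 entries, 1 repeated gene symbol was counted once. Reads per library had a median of 16399898, and a count of 3 reads equalled 0.101 to 0.250 CPM. This floor covers counting error only, and p-values measure the spread between these mice.

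Genes at 1 CPM or more in at least 4 of 16 libraries were tested with limma 3.58.1 (R 4.3.3, trended variance, 4 groups in 1 fit) on log2(CPM + 1), which understates changes of low genes. A call needed an unadjusted p under 0.05 and a change over 0.32 on the log2 scale. Benjamini-Hochberg adjustment ran over all genes tested. Log2 ratios between members were compared by exact two-sided permutation (scipy 1.17.1). The alternatives were pseudocounts, filters, scalings, edgeR 4.0.16 and voom on the recovered reads, other variance estimates, a replicate block and leaving out each mouse. Scripts were tested on simulated data. Named genes were the members, genes of each list called between genotypes at D7 or in the interaction, up to 3 per direction with the largest changes after injury, and the 5 genes nearest to each member, of which some are not reported here. The members and the gene lists were chosen with earlier results of these data known. Of 13733 symbols, 13428 matched GENCODE M21.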

Additional observations from a re-analysis of the deposited data

Results flagged for a closer look

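In 8 of 204 groups of 4 mice, the gap of 1 mouse to its nearest neighbour was a larger share of the group's range than Dixon's critical value, where chance gives about 10.2. The members were not among them. Duox1 stood at 19.4 CPM in Trem2-/- D7 replicate 1 against 11.8 to 13.0 CPM in the others (gap 0.842 of the range). Vav3 stood at 64.3 CPM in Trem2-/- D0 replicate 1 against 42.6 to 44.9 (0.894). Btk stood at 21.8 CPM in WT D7 replicate 3 against 17.4 to 17.5 (0.970), the mouse that was also highest for all 4 members in its group. Plcb2 stood apart in WT D7 replicate 4, at 20.4 CPM against 24.5 to 25.3 (0.833), and in Trem2-/- D7 replicate 3, at 18.5 against 13.2 to 13.6 (0.930). Cebpb was at 968 CPM in WT D0 replicate 3 against 442 to 519 (0.855). Rpia was at 16.1 CPM in WT D7 replicate 4 against 19.6 to 20.1 (0.885), and Gpx8 at 8.95 CPM in Trem2-/- D0 replicate 3 against 16.6 to 17.7 (0.876).

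The injury response differed between the genotypes by the test of the interaction (unadjusted limma p under 0.05) for 23 of the named genes, and for none of them after adjustment over all genes. Genes were named partly for being called in the interaction, so this count follows from their choice, and over all genes tested 1026 of 13173 were called. Values are log2, with a negative value for a deeper drop or smaller rise in Trem2-/- mice. Among the members they were -1.26 for Ncf1 and -1.21 for Ncf4, and that of the partner Rac2 was -1.08. Signaling genes gave -0.99 for Prkcb, -0.74 for Prkcd, -1.08 for Vav1, -0.49 for Prex1, -0.72 for Plcg2, -1.0 for Pik3cg, -0.72 for Pik3cd, -1.0 for Syk, -0.90 for Btk and -0.69 for Irak4. Receptors gave -1.14 for Fpr1, -1.02 for C5ar1, -1.05 for Itgb2, -0.94 for Fcgr3 and -0.91 for Fcer1g, and transcription factors -0.94 for Spi1 and -0.41 for Irf2. The values above 0 were 1.0 for Duoxa1, 1.09 for Gpx3 and 0.70 for Prdx4. The call was lost in at least 1 of the 16 fits that left out a mouse for Rac2, Duoxa1, Prex1, Plcg2, Pik3cd, Irak4, Fpr1, Fcer1g, Irf2 and Gpx3, and in none of them for the other 13. Pan-leukocyte genes moved with these values, with 5 of 6 called lower in the interaction, against 5.02% of all genes tested. With 1 of the 16 mice left out this count ranged from 2 to 6. The part of the pan-leukocyte genes was not tested.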

How the results depend on the processing

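Of the log2 fold changes of the 4 members under the alternatives, 416 kept their direction and their side of the call, 6 lost the call, 2 gained it and 4 changed sign. The 4 changes of sign were those of Cybb between the genotypes at D0 with a mouse left out (-0.26 and -0.07 without WT D0 replicate 1 and 4, -0.16 and -0.28 without Trem2-/- D0 replicate 1 and 3, and 0.32 at the other end without Trem2-/- D0 replicate 4). The log2 ratio of Ncf1 to Ncf4 between the genotypes at D7 went from 0.0074 to -0.036 with a pseudocount of 5. With 1 mouse left out, members called between the genotypes numbered 1 to 2 at D7 and 0 to 1 at D0. A fit of the injured mice alone called 3 members at D7, with Cybb added. The fit with a replicate block (the number in the labels) changed no call of a member, and 757 genes were called between the genotypes at D7 with the replicate block against 753 without it. Same-numbered mice did not deviate together (11 of 24 pairs had r above 0.1, median 0.07), and each mouse correlated best with its own number in 16 of 48 cases.

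Counts over all genes that moved by more than 1.5 times were as follows. Fitting only the groups compared gave 1366 genes called between the genotypes at D7 (753 in the fit of all groups), 149 at D0 (283) and 1736 past the adjusted threshold after injury in WT (3752). A fold change over 1.5 gave 2985 after injury in WT (4933), 340 at D7, 131 at D0 and 635 in the interaction (1026). At D0 a pseudocount of 5 gave 164 and edgeR 466. Leaving out 1 mouse moved the D0 count to 1231 without WT D0 replicate 2, 107 without replicate 4, and 441 and 442 without replicates 1 and 3 of that group, and to 542 without Trem2-/- D0 replicate 4. Omitting the second and the fourth of the uninjured WT mice gave interaction counts of 2236 and 609, and omitting WT D7 replicate 3 gave 662 in the interaction and 480 at D7. The adjusted WT count was 1972 and 2256 without WT D0 replicate 3 and 2, and 2498 without WT D7 replicate 1. The shares of all genes called, printed beside the members, move with these counts. The cause of these changes was not tested, beyond the fewer mice or the stricter fold in their construction. Depth did not limit the members, which had at least 414 reads in every library, whereas 4 mice per group held the exact tests of ratios to p of 0.0286 or above.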
